A study of Mus musculus with 20 samples.

Results

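Autophagy takes worn proteins, aggregates and organelles into a double membrane, the autophagosome, which then fuses with the lysosome, where acid hydrolases digest the load. A kinase complex starts the process, a lipid kinase complex marks the membrane, small ubiquitin-like proteins of the ATG8 family are coupled to it, and receptors tether the cargo to them. Skeletal muscle relies on this route to clear damaged mitochondria and contractile proteins and turns it up in fasting and disuse, partly through transcription factors that raise its genes. The level of a transcript does not measure the flux through the pathway, and only transcripts were measured here.

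The RNA of 10 genes of this pathway was followed in 20 mice: the kinase gene Ulk1 and its downstream partner Becn1, the ATG8 genes Map1lc3a, Map1lc3b and Gabarapl1, the receptors Sqstm1 and Bnip3, the lysosomal genes Ctsl and Lamp2, and Tfeb, the transcription factor of the lysosome. The genes were chosen by name and mapped to the Ensembl identifiers of the counts, which list 55401 genes. All 10 were found, and all 10 passed the filter on low counts, which left 13626 genes in the test. The lowest count behind any value of the 10 was 593, of Gabarapl1. Exons of Sqstm1 share 580 bases with Mrnip and those of Becn1 3104 bases with Cntd1, both on the opposite strand, and whether reads there were split by strand is not given in the sources used here. Over the 20 mice, Mrnip held 807 counts against 205594 for Sqstm1 and Cntd1 119 against 25097 for Becn1.

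The samples were gastrocnemius muscles of old C57BL/6 mice, aged 24 months. HK mice (n = 10) drank water with Haenkenium, an extract of the plant Salvia haenkei, at 0.5 mg per kg per day from 20 months of age, and untreated mice (n = 10) drank water without it. Each treatment held 5 males and 5 females. The libraries came from 2 sequencing experiments, called batch 1 and batch 2 as in the labels, with 2 mice of each treatment and sex in batch 1 and 3 in batch 2. The study asked whether the extract shifts the old muscle, so HK was set against untreated, and the contrasts of sex and batch come from the same fit.

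The libraries were made from RNA depleted of ribosomal RNA and held between 13900180 and 30469644 counts. Transcripts of skeletal muscle were abundant in them, with a summed level of 8 markers between 120823 and 165784 CPM. CPM are counts scaled to the library total after adjustment of that total by TMM. The defining markers of the labelled tissue were thus present. Markers of slow fibres (7 genes, 771 to 6333 CPM), macrophages (13 genes, 25.8 to 387.5 CPM) and adipocytes (4 genes, 2.0 to 59.7 CPM) were also present in differing amounts. In whole muscle, fewer cells of a type and less RNA per cell cannot be told apart. Untreated female 3 stood apart in many of the 10 genes, and results that rest on it are given with and without it. Its slow fibre markers were the highest of the 10 females (4691 CPM, against 2509 to 3662 in the others). Its blood markers (267.8 CPM, against 29.2 to 276.8) and macrophage markers (162.0 CPM, against 42.5 to 224.4) each ranked 2 of the 10. Its skeletal muscle sum (125805 CPM, against 124842 to 165784) ranked 9. Its endothelium, adipocyte and fibro-adipogenic progenitor sums ranked 6, 7 and 8. Untreated male 3 held the highest slow fibre sum of all mice.

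The regions around the RefSeq start sites of the genes are shown first, because transcription factors of the pathway are known to read short motifs there. TFEB reads an E-box, CACGTG, within the palindrome TCACGTGA, and FoxO factors read TGTTTAC. RefSeq promoter windows of 300 bases, from 250 before to 50 after the start site on GRCm38.p6, were found for 8 of the 10 genes, with 3 windows for Tfeb and no entry for Map1lc3a and Becn1. The E-box was present in 2 of these 8 genes, Bnip3 (108 bases before the start site) and Ctsl (236 bases before it). It was present in 7.15% of all 32851 windows, searched on both strands. The Ctsl window lies inside the annotated span of the gene (64359337 to 64370890, minus strand). Its E-box is thus before the RefSeq start site but past the annotated 5′ end of the gene. The palindrome (in 0.974% of all windows; it contains the E-box) and the FoxO motif (in 3.65%) were in none of the windows of the 8 genes. These are matches of letters and say nothing of binding. The windows of Bnip3 and Ctsl are printed because they hold the E-box, shown in capitals, and that of Sqstm1 because it is the most abundant of the 10 transcripts and holds no match. Each is given from 5′ to 3′ on the strand of the gene, which is the minus strand for all 3: Bnip3 at chr7:138909457-138909756, Ctsl at chr13:64370471-64370770 and Sqstm1 at chr11:50210771-50211070.
Bnip3: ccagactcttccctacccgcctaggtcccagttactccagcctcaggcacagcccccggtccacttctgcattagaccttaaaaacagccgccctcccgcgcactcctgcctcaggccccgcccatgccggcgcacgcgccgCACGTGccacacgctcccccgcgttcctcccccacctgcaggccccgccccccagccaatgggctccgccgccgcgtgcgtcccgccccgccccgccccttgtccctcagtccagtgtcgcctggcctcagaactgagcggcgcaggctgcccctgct
Ctsl: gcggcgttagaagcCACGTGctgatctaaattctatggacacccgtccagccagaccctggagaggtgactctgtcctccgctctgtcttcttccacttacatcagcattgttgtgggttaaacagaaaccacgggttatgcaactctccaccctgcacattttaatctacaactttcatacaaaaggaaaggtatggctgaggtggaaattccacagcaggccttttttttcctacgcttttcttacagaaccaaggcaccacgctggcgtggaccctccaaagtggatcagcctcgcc
Sqstm1: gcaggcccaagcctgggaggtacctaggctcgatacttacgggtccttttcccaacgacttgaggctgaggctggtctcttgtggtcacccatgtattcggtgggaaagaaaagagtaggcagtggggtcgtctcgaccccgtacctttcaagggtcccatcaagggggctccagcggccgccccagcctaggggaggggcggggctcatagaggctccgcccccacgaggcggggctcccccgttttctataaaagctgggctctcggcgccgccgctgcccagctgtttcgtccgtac

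Per length of transcript, the cargo receptor and an ATG8 gene led the 10 genes and the starting kinase stood lowest. The median level over 20 mice, in CPM per kilobase of mRNA, was 239 for Sqstm1 (194 to 301), 134 for Map1lc3a (88.4 to 203) and 88.5 for Bnip3 (69.3 to 135). Ctsl (47.3), Map1lc3b (44.9), Lamp2 (42.9), Gabarapl1 (38.5), Tfeb (37.6) and Becn1 (32.0) followed with ranges that overlapped those of their neighbours. Ulk1 came last at 18.1 (12.2 to 20.8), below the lowest mouse of Becn1 (28.3). With the union of all annotated exons as the length, the first 3 kept their order, while the other ranks moved and Becn1 came last.

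The spread between mice also differed between genes. Becn1 was the steadiest, with a coefficient of variation of 6.83% over 20 mice and a highest mouse 1.27 times the lowest. Gabarapl1 (25.3%), Ctsl (23.8%) and Map1lc3a (23.1%) varied most, each with a highest mouse at least 2.3 times the lowest. The plot of levels by mouse shows these spreads by treatment, sex and batch.

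**Figure D1:**
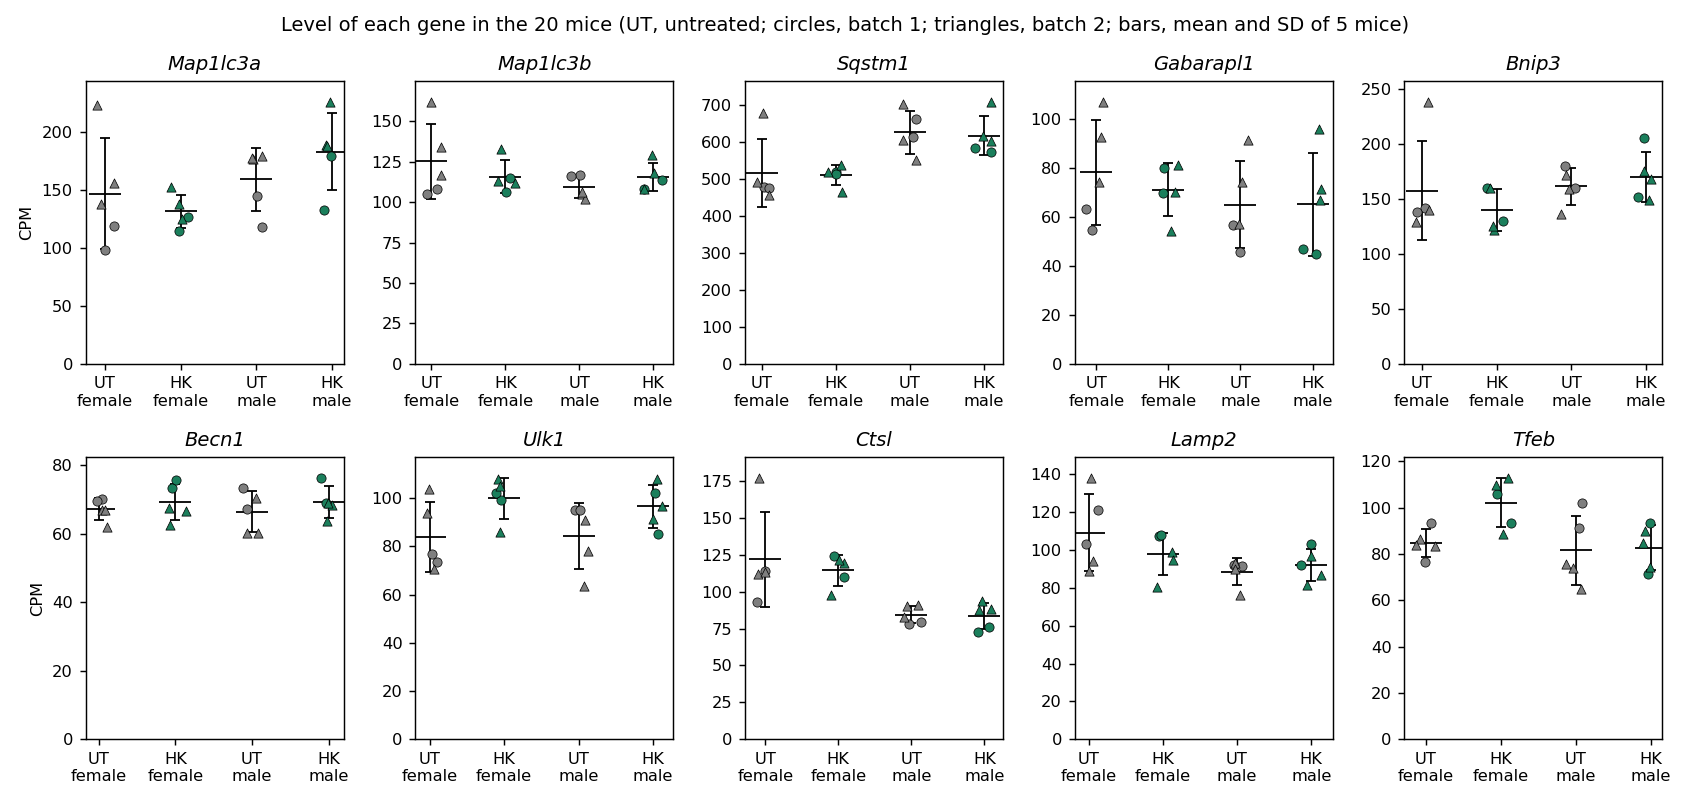
Level of each of the 10 genes in CPM (vertical axes, from 0) in every mouse, by treatment and sex (UT, untreated; 5 mice a column). Circles are batch 1, triangles batch 2, and bars give mean and SD. Ctsl sits lower in both male columns and Sqstm1 higher, and the lone high triangle in the untreated female column of Map1lc3a, Sqstm1, Bnip3 and Ctsl is the same mouse, untreated female 3.

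Between HK and untreated mice, none of the 10 genes passed an adjusted p of 0.05, nor did any gene in the muscle. Ulk1 was nearest, 17.1% higher in HK mice, followed by Tfeb, 11% higher, and the other 8 lay within 4% of equality. By edgeR (quasi-likelihood test, p adjusted after Benjamini and Hochberg), 0 of 13626 genes were called higher (0%) and 0 lower (0%). Before adjustment, 379 genes with a p under 0.05 lay higher (2.78%) and 456 lower (3.35%), and of the 10 genes 1, Ulk1, was higher and 0 were lower, which is near that background. The median log2 fold change over all genes was 0.0024. DESeq2's Wald test called 7 genes and limma voom 0, none of them among the 10.

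Ulk1 (ENSMUSG00000029512, chromosome 5, 110784488 to 110810097, minus strand) encodes the kinase that starts autophagy when nutrients are short. Its level in HK mice was 85.2 CPM in the lowest, 100 at the median and 108 in the highest of 10, against 63.5, 84.5 and 104 in untreated mice. All 10 HK mice lay above the untreated median, 3 of them above the highest untreated mouse, so the groups overlapped only in part. The log2 fold change was 0.23 (standard error 0.08, unadjusted p = 0.0123, adjusted p = 0.795 in edgeR), with a 95% interval from 3.88% to 31.9% higher. It was higher in both batches (log2 0.20 in batch 1 and 0.26 in batch 2 alone) and in both sexes (0.20 in males and 0.26 in females alone). In these edgeR fits the unadjusted p was 0.0607 in batch 1, 0.0393 in batch 2, 0.110 in males and 0.0347 in females. With each of the 20 mice left out in turn, its unadjusted p stayed under 0.05. Ulk1 passed an adjusted p of 0.05 in 1 setting, the edgeR fit without the filter on low counts (adjusted p = 0.0341), which called 502 genes of the muscle in all. Over the other alternatives its adjusted p was between 0.58 and 0.99998.

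Tfeb (ENSMUSG00000023990, chromosome 17, 47737030 to 47792419, plus strand) encodes the factor that switches on genes of lysosomes and autophagy. Its lowest, median and highest HK mice stood at 71.5, 91.6 and 113 CPM, and those of the untreated group at 65.1, 83.7 and 102. Of the HK mice 8 of 10 lay above the untreated median and 3 above the highest untreated mouse, and these were females. The log2 fold change was 0.15 (standard error 0.08, unadjusted p = 0.0689, adjusted p = 0.795 in edgeR), and the 95% interval ran from 0.881% lower to 24.3% higher. In females Tfeb averaged 102 ± 10.6 CPM (SD, n = 5) with HK and 84.8 ± 6.04 (SD, n = 5) without, but in males 82.9 ± 9.59 and 81.5 ± 14.7. In batch 2 it averaged 93.4 ± 14.98 CPM (SD, n = 6) with HK and 78.1 ± 8.06 (SD, n = 6) without, but in batch 1 91.1 ± 14.3 and 90.8 ± 10.4 (SD, n = 4 each). The tests of these differences between sexes and between batches (interaction terms) did not pass.

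Becn1 (ENSMUSG00000035086, chromosome 11, 101285952 to 101302286, minus strand), whose protein belongs to the lipid kinase complex that marks the forming membrane, had the tightest bound. Its mean was 69.1 ± 4.64 CPM (SD, n = 10) in HK and 66.7 ± 4.54 (SD, n = 10) in untreated mice. The 95% interval of the difference ran from 2.16% lower to 9.76% higher, the narrowest of the 10.

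The ATG8 genes, whose proteins coat the autophagosome and hold the cargo receptors, differed little. Map1lc3a (ENSMUSG00000027602, chromosome 2, 155276297 to 155278073) averaged 157 ± 36.3 CPM (SD, n = 10) in HK and 153 ± 37.2 (SD, n = 10) in untreated mice, and Map1lc3b (ENSMUSG00000031812, chromosome 8, 121590361 to 121598760) at 116 ± 9.08 and 117 ± 18.2. Gabarapl1 (ENSMUSG00000030161, chromosome 6, 129533160 to 129542346) was at 68.1 ± 16.02 and 71.7 ± 19.9 CPM. Each difference was smaller than the SD of either group. The interval was narrow for Map1lc3b, from 10.4% lower to 9.33% higher, and wide for Gabarapl1, from 18.7% lower to 14.99% higher.

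The receptors showed the same. Sqstm1 (ENSMUSG00000015837, chromosome 11, 50199366 to 50210827), also called p62, which carries ubiquitinated proteins to the autophagosome and is itself digested there, was at 564 ± 69.4 CPM (SD, n = 10) in HK and 572 ± 93.5 (SD, n = 10) in untreated mice, with an interval from 10.4% lower to 8.78% higher. Bnip3 (ENSMUSG00000078566, chromosome 7, 138890836 to 138909519), a receptor on mitochondria, was at 154 ± 25.2 and 159 ± 32.2 CPM. Both values of the untreated group include untreated female 3, at 680 CPM for Sqstm1 and 238 for Bnip3.

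The lysosomal genes were no different. Ctsl (ENSMUSG00000021477, chromosome 13, 64359337 to 64370890), the gene of the protease cathepsin L, was at 99.0 ± 18.7 CPM (SD, n = 10) in HK and 103 ± 29.4 (SD, n = 10) in untreated mice. Lamp2 (ENSMUSG00000016534, chromosome X, 38401357 to 38456454), which encodes a major protein of the lysosomal membrane, was at 94.9 ± 9.75 and 98.6 ± 17.7 CPM. Without untreated female 3, the log2 fold change turned from below to above 0 for 5 genes: Map1lc3b (-0.015 to 0.039), Sqstm1 (-0.018 to 0.036), Bnip3 (-0.052 to 0.053), Ctsl (-0.047 to 0.027) and Lamp2 (-0.052 to 0.012). None was called with or without this mouse.

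**Figure D2:**
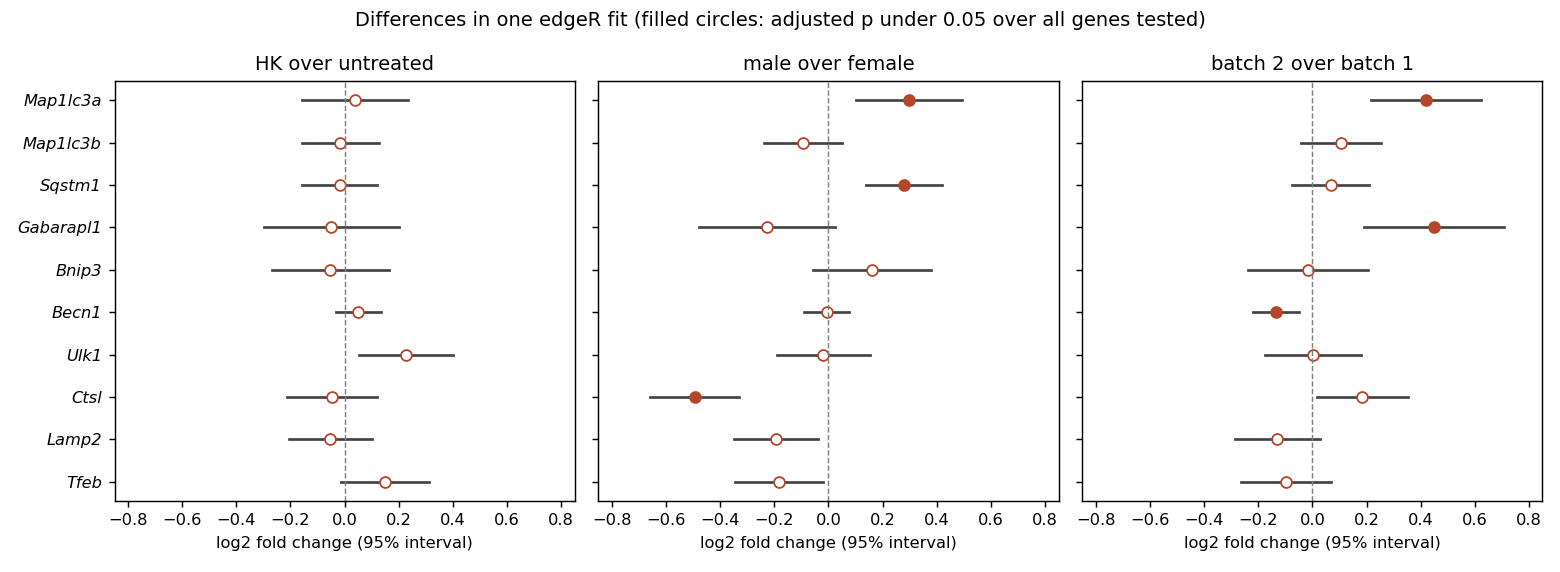
Log2 fold change (horizontal axes) with its 95% interval for the 10 genes between HK and untreated mice, males and females, and batch 2 and batch 1, all from 1 edgeR fit to 20 mice. Filled circles passed an adjusted p of 0.05 over all genes. The treatment panel has no filled circle; the sex panel has 3 (Map1lc3a, Sqstm1, Ctsl) and the batch panel 3 (Map1lc3a, Gabarapl1, Becn1).

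Whether the treatment acted differently in the sexes or in the batches was tested by interaction terms in edgeR over 13800 genes. In either interaction 0 genes were called higher (0%) and 0 lower (0%), and at an unadjusted p under 0.05 the interaction with sex gave 250 genes with a positive and 233 with a negative term for males, and that with batch 217 and 199. None of the 10 genes reached an unadjusted p of 0.05. The lowest p belonged to Map1lc3a for sex, where the log2 difference was 0.34 more positive in males (95% interval -0.03 to 0.71, unadjusted p = 0.0718, adjusted p = 0.998), and to Tfeb for batch, at 0.26 more positive in batch 2 (-0.05 to 0.58, unadjusted p = 0.0985, adjusted p = 0.9997). Map1lc3a was at 183 ± 33.1 CPM (SD, n = 5) in HK males and 159 ± 27.4 in untreated males, but at 132 ± 14.4 in HK females and 147 ± 47.7 in untreated females, the last of which includes untreated female 3 at 223 CPM. Without that mouse the interaction of Map1lc3a was 0.18.

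More of the 10 genes passed between the sexes than between the treatments. Ctsl was 29.0% lower in males, Sqstm1 21.3% and Map1lc3a 22.9% higher, and the other 7 genes did not pass. Over the muscle, 1198 genes were called higher in males (8.79%) and 999 lower (7.33%) at an adjusted p of 0.05 in edgeR, so 2 of 10 higher and 1 of 10 lower is a share not far from the background. Before adjustment, 2120 genes with a p under 0.05 lay higher (15.6%) and 2011 lower (14.8%), against 2 and 3 of the 10.

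Ctsl was at 72.4 CPM in the lowest, 85.05 at the median and 93.4 in the highest male, and at 93.1, 113.5 and 177 in females. Only the lowest female fell inside the male range, and within each batch the sexes did not overlap: 72.4 to 79.5 CPM in males and 93.1 to 124 in females in batch 1, and 82.8 to 93.4 against 97.6 to 177 in batch 2. The log2 fold change was -0.49 (standard error 0.08, adjusted p = 1.98e-04 in edgeR). It passed with each of the 20 mice left out (log2 -0.53 to -0.42) and in every alternative that gave a contrast of sex. Without untreated female 3, the females ranged from 93.1 to 124 CPM.

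Sqstm1 was at 551 CPM in the lowest, 610 at the median and 709 in the highest male, and at 456, 502 and 680 in females. The 680 was untreated female 3; the other 9 females ended at 539, below every male. The log2 fold change was 0.28 (standard error 0.07, adjusted p = 0.0068 in edgeR), and it passed with each mouse left out. In batch 2 alone, to which untreated female 3 belongs, it was 0.26 and did not pass (adjusted p = 0.146), and in batch 1 alone the sexes did not overlap.

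Map1lc3a was at 118 CPM in the lowest, 178.5 at the median and 226 in the highest male, and at 98.3, 132.5 and 223 in females, so the ranges overlapped widely. At 0.30 (standard error 0.09), the log2 fold change was a call near the threshold (edgeR, adjusted p = 0.0355). It was lost in each batch alone (0.31 in batch 1, adjusted p = 0.123; 0.29 in batch 2, adjusted p = 0.186), with library size as the only scaling (adjusted p = 0.0833), without covariates (adjusted p = 0.131) and with 12 of the 20 mice left out in turn, where the adjusted p rose to at most 0.0874. Without untreated female 3 it was stronger, at 0.38, and 9 of the 10 males lay above the female median.

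The other genes did not pass. Lamp2, on the X chromosome, had a log2 fold change of -0.19 (adjusted p = 0.082), Tfeb of -0.18 (adjusted p = 0.116) and Gabarapl1 of -0.23 (adjusted p = 0.212), all lower in males. Lamp2 and Tfeb passed with library size as the only scaling (-0.24 and -0.23), Lamp2 and Gabarapl1 without the filter on low counts, Gabarapl1 in batch 1 alone (-0.46) and Tfeb in batch 2 alone (-0.29). Lamp2 also passed without untreated female 5 and without HK female 4, and Tfeb without untreated male 1. Bnip3 was 11.7% higher in males (adjusted p = 0.321) with untreated female 3 and passed without it (log2 0.26, adjusted p = 0.0107). Becn1 and Ulk1 had log2 values of -0.0073 and -0.019.

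Markers of cell and fibre types moved with sex as well. All 7 slow fibre genes were lower in males (median log2 -1.16, 6 passing an adjusted p of 0.05), with a median sum of 971 CPM in males and 3401 in females, and all 4 adipocyte genes were lower in males (median -1.40, 3 passing). Of the 13 macrophage genes 12 had higher values in males (median 0.57, 1 passing), with sums from 25.8 to 387.5 CPM in males and 42.5 to 224.4 in females. The part of these markers in the differences of Ctsl, Sqstm1 and Map1lc3a was not tested.

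Map1lc3a and Map1lc3b encode close relatives with the same role, and their ratio within a mouse does not depend on how libraries are scaled. The ratio of Map1lc3b to Map1lc3a in CPM was 0.523 in the lowest, 0.772 at the median and 1.004 in the highest HK mouse, against 0.571, 0.778 and 1.09 in the untreated group. The groups covered nearly the same range, and the log2 ratio differed by -0.053 (p = 0.564 by a two-sided exact permutation test that kept sex and batch, n = 10 each). Between the sexes, a test added after the data were seen, the median ratio was 0.616 in males and 0.894 in females, and the log2 ratio was 0.40 lower in males on average, with a difference of -0.40 (two-sided exact permutation test that kept treatment and batch, p = 6.94e-04). Batch 2 alone gave -0.50 (p = 0.005 by the exact permutation test, the smallest it can give). Batch 1 alone gave -0.24 (p = 0.167 by the same exact test, whose smallest possible p is 0.0556). The females thus held more nearly equal CPM of both transcripts than the males did, in batch 2 beyond the spread between mice. CPM are not scaled to length, and the mRNAs measure 1112 bases (Map1lc3a) and 2532 bases (Map1lc3b). Equal CPM are thus not equal numbers of transcripts. Of the 2 genes, Map1lc3a was called between the sexes (log2 0.30) and Map1lc3b was not (-0.094).

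The sequencing experiments differed more than the treatments. They also held different mice, so a difference of sequencing and one of the groups of mice cannot be told apart. In edgeR 2474 genes were called higher in batch 2 (18.2%) and 2588 lower (19%), and of the 10 genes Map1lc3a (33.7% higher, adjusted p = 0.0023) and Gabarapl1 (36.5% higher, adjusted p = 0.0079) were higher and Becn1 (8.97% lower, adjusted p = 0.0127) lower, a share not far from the background. Gabarapl1 was at 44.7 to 80.0 CPM in batch 1 and 54.4 to 107 in batch 2. Of the 12 mice of batch 2, 11 lay above the median of batch 1 for Gabarapl1, all 12 above it for Map1lc3a and all 12 below it for Becn1. All 13 macrophage genes were called higher in batch 2 (median log2 1.88). The part of these markers in the 3 genes was not tested. The call of Becn1 was lost in females alone (adjusted p = 0.137), in males alone (adjusted p = 0.253) and without the filter on low counts (adjusted p = 0.192), and those of Map1lc3a (adjusted p = 0.0804) and Gabarapl1 (adjusted p = 0.367) were lost in females alone, all in edgeR. Lamp2 had a log2 fold change of -0.13 (adjusted p = 0.182) and passed as lower in batch 2 only without untreated female 3 (adjusted p = 0.0128). Treatments and sexes were balanced over the batches.

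The mouse that stood apart did so in most of the genes at once. Untreated female 3 lay above the mean of its sex and batch by 0.69 on the log2 scale for Bnip3 and by 0.55 for both Map1lc3a and Ctsl. It held the highest level of any of the 20 mice for Bnip3, Ctsl, Lamp2 (138 CPM) and Map1lc3b (162 CPM), while its Ulk1 (70.5 CPM) was the lowest of the females.

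**Figure D3:**
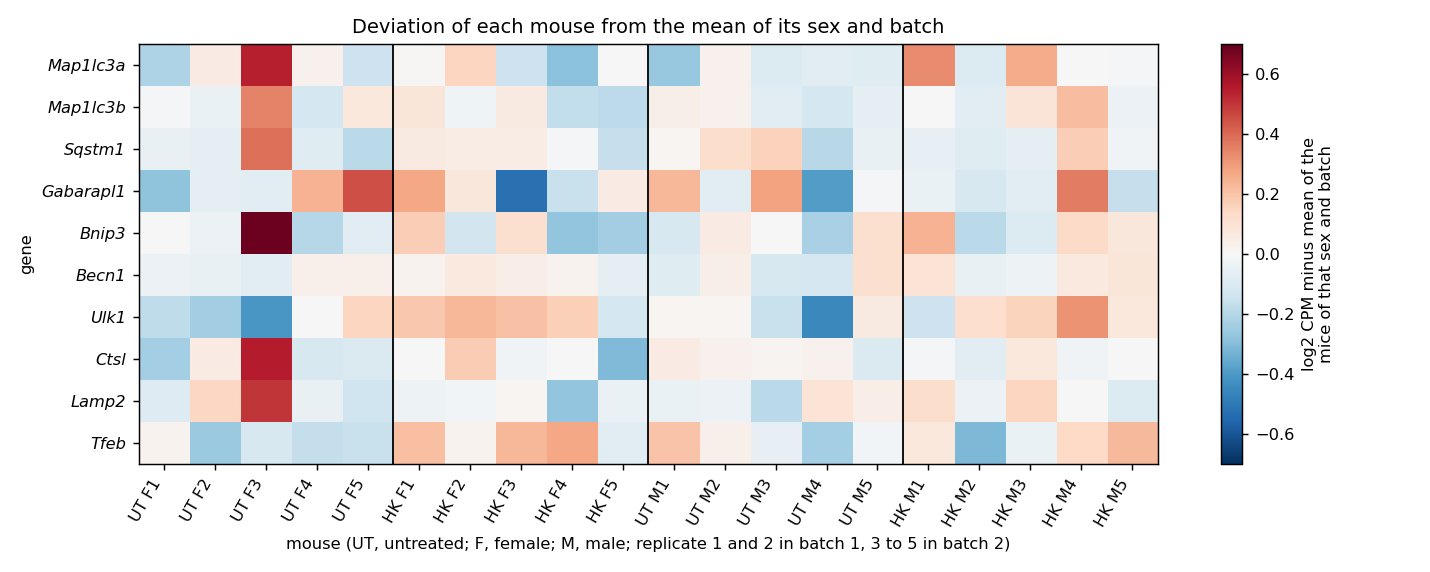
Deviation of each mouse (columns) from the mean log2 CPM of the mice of its sex and batch for each of the 10 genes (rows), red above and blue below. The column of untreated female 3 (UT F3) is dark red in 6 rows, up to 0.69 for Bnip3, and blue for Ulk1; no HK column shows such a block.

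Over the 45 pairs of genes, 25 correlated positively and the median Pearson r of log2 CPM centred within treatment, sex and batch was 0.15 (n = 20). At an unadjusted p under 0.05, 5 pairs passed by Pearson's r and 6 by Spearman's rho in the exact permutation test within the strata, and after Benjamini-Hochberg adjustment over the 45 pairs 0 passed by r and 1 by rho. That pair was Map1lc3a with Lamp2, whose r was 0.83 (exact permutation test, p = 0.0022, adjusted p = 0.098) and rho 0.81 (adjusted p = 0.041). Its r was 0.79 in batch 1 and 0.90 in batch 2. The 2 mice of a treatment and sex in batch 1 have centred values that mirror each other. The r of batch 1 thus rests on fewer independent values than mice. For this pair r was 0.67 without the 2 mice farthest from the median. It was 0.66 without untreated female 3, where rho was 0.76 and no longer passed (exact permutation test, adjusted p = 0.0846). Without untreated female 3, 3 pairs by r and 4 by rho had an unadjusted p under 0.05 and 0 passed by either measure after adjustment (exact permutation test, n = 19). The pair of Map1lc3a and Lamp2 was named for passing by rho after its values were seen.

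**Figure D4:**
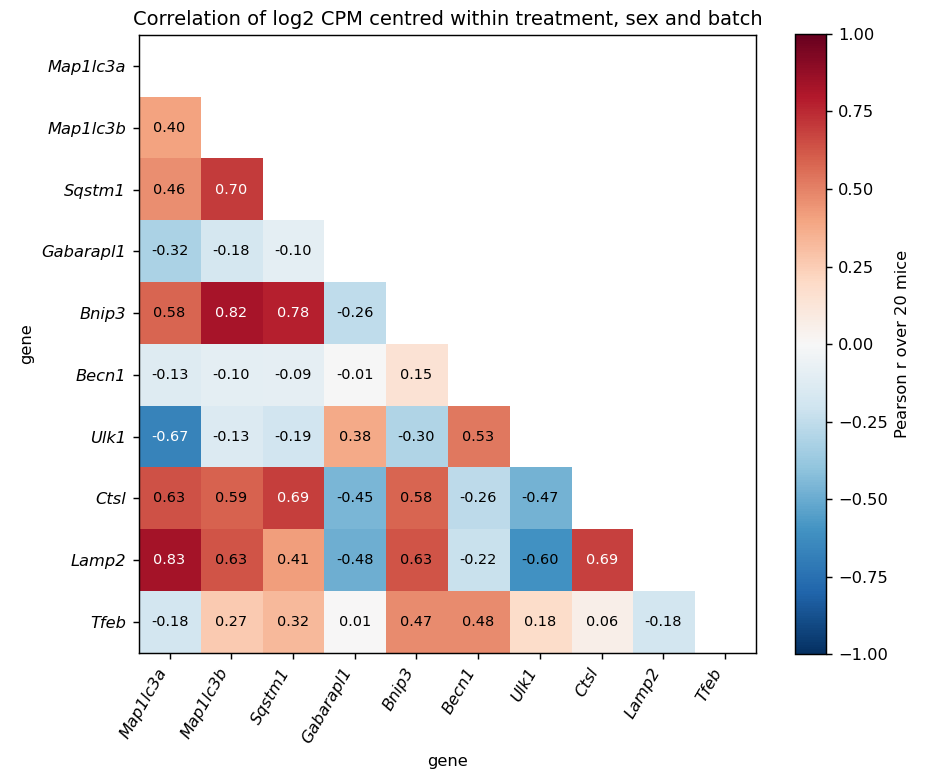
Pearson r (colour and number) for each of the 45 pairs of the 10 genes over 20 mice, computed on log2 CPM centred within treatment, sex and batch. Map1lc3a with Lamp2 (0.83) and Map1lc3b with Bnip3 (0.82) stand highest and Map1lc3a with Ulk1 (-0.67) lowest; untreated female 3 enters all of them.

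Among the other genes of the muscle, those most like each of the 10 by the same centred Pearson r were named as a description, with r picked as the highest of all genes tested. They were Eif3e for Bnip3 (r = 0.94), Nmt1 for Sqstm1 (0.93), Sec63 for Lamp2 (0.92), Pank4 for Gabarapl1 (0.91) and R3hcc1l for Map1lc3b (0.90). For Ulk1 it was Rab11fip3 (0.90), for Ctsl Arhgap35 (0.90), for Map1lc3a Serpine2 (0.90), for Tfeb Lingo4 (0.89) and for Becn1 mt-Nd6 (0.87). These values share the libraries and the mouse that stood apart, and in batch 1 alone r dropped to 0.45 for R3hcc1l and 0.44 for Nmt1. There the centred values of the 2 mice of a treatment and sex mirror each other, so r rests on fewer independent values.

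Around the 10 genes, 125 other genes of the pathway were read from 12 lists. These ran from the ATG8 machinery to lysosomal enzymes and the genes that fasting raises along with it. The lists also hold the 10 genes, and sizes, counts and medians given for a single list include them. In HK against untreated mice 0 of the 125 passed an adjusted p of 0.05 in edgeR. At an unadjusted p under 0.05, 4 were higher (3.2%) and 0 lower, against a background of 2.78% higher and 3.35% lower over all genes. The median log2 fold change was 0.014, with 69 of 125 genes above 0, against 0.0024 and 51.0% over all genes. Between the batches 45.6% of the 125 passed in edgeR, 34 higher in batch 2 and 23 lower. The background there was 18.2% higher and 19% lower over all genes.

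The ATG8 coupling enzymes (11 genes, median 0.034), the initiation and membrane genes (12, 0.062), the lipid kinase complexes (8, 0.0080), the mitophagy genes (9, 0.014), the fusion genes (13, -0.0024), the lysosomal membrane (10, 0.0054) and the V-ATPase that acidifies the lysosome (16, 0.017) centred near 0. The non-member genes with the lowest p in these lists were Atg16l1 (log2 0.055), Ulk2 (0.12), Uvrag (-0.11), Fkbp8 (0.054), Vps16 (-0.095), Scarb2 (0.098) and Atp6v1h (-0.12). Gabarap (-0.029) had the lowest p among the ATG8 genes outside the 10 and Tfe3 (-0.12), a relative of Tfeb, among the transcription regulators. Tollip, a receptor of ubiquitinated cargo, was 7.42% higher (unadjusted p = 0.0473, adjusted p = 0.795). None of these passed.

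Among the 27 lysosomal hydrolases, 21 lay below 0 and 6 above in HK mice, with a median of -0.057 and 0 at an unadjusted p under 0.05 in either direction. Ctsh, a cathepsin, had the lowest p (log2 -0.26, standard error 0.16, adjusted p = 0.83). Without untreated female 3 the counts were 19 below and 8 above, with a median of -0.051. Between the batches 25 of the 27 hydrolases lay higher in batch 2 (median log2 0.20), with 17 called higher and 0 lower. All 13 macrophage markers also lay below 0 in HK mice (median -0.28, 0 at an unadjusted p under 0.05). Their sums ran from 25.8 to 290.6 CPM in HK and 37.0 to 387.5 in untreated mice. All 7 slow fibre markers lay below 0 too (median -0.71, 5 at an unadjusted p under 0.05, 0 called). Their median sum was 2068 CPM in HK and 2847 in untreated mice. In females it was 3351 with HK and 3486 without, and in males 960 and 1767. The untreated males include untreated male 3 at 6333 CPM. All 5 endothelial markers (median -0.26, 1 at an unadjusted p under 0.05) lay below 0 in HK mice as well. So did all 5 markers of fibro-adipogenic progenitors (median -0.22, 0 at an unadjusted p under 0.05). Of the 6 blood markers 4 lay above 0 (median 0.44), and of the 4 adipocyte markers 2 did (median 0.0082). The part of these markers in the hydrolases was not tested.

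The 10 companions of FoxO and fasting had the highest list median, 0.13, with 9 above 0. This median was 0.28 in males alone and ran from 0.084 (without untreated male 4) to 0.25 (without untreated female 5) with each mouse left out. Irs2, which carries the insulin signal, was at 25.8 CPM in the lowest, 67.0 at the median and 326 in the highest HK mouse, and at 15.2, 36.1 and 113 in untreated mice, so the groups overlapped over most of their range. Its log2 fold change was 1.05 (standard error 0.34, unadjusted p = 0.00539, adjusted p = 0.795 in edgeR). Between the batches Irs2 was higher in batch 2 (log2 1.59, adjusted p = 0.0018 in edgeR). Its difference with HK was 1.26 more positive in batch 2 (edgeR interaction, unadjusted p = 0.0649, adjusted p = 0.9997). It was 1.06 more positive in males (edgeR interaction, unadjusted p = 0.117, adjusted p = 0.998). Ddit4, an inhibitor of mTORC1 signalling, and Trim63, a ubiquitin ligase of muscle atrophy, had log2 fold changes of 1.48 and 0.40, each with an adjusted p of 0.795; they are named because they complete the 3 genes of the list under an unadjusted p of 0.05, after their values were seen. Without untreated female 3, 8 of 10 lay above 0 and 2 had an unadjusted p under 0.05. Between the batches 6 of the 10 were called higher in batch 2 and 2 lower (median log2 0.40).

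**Figure D5:**
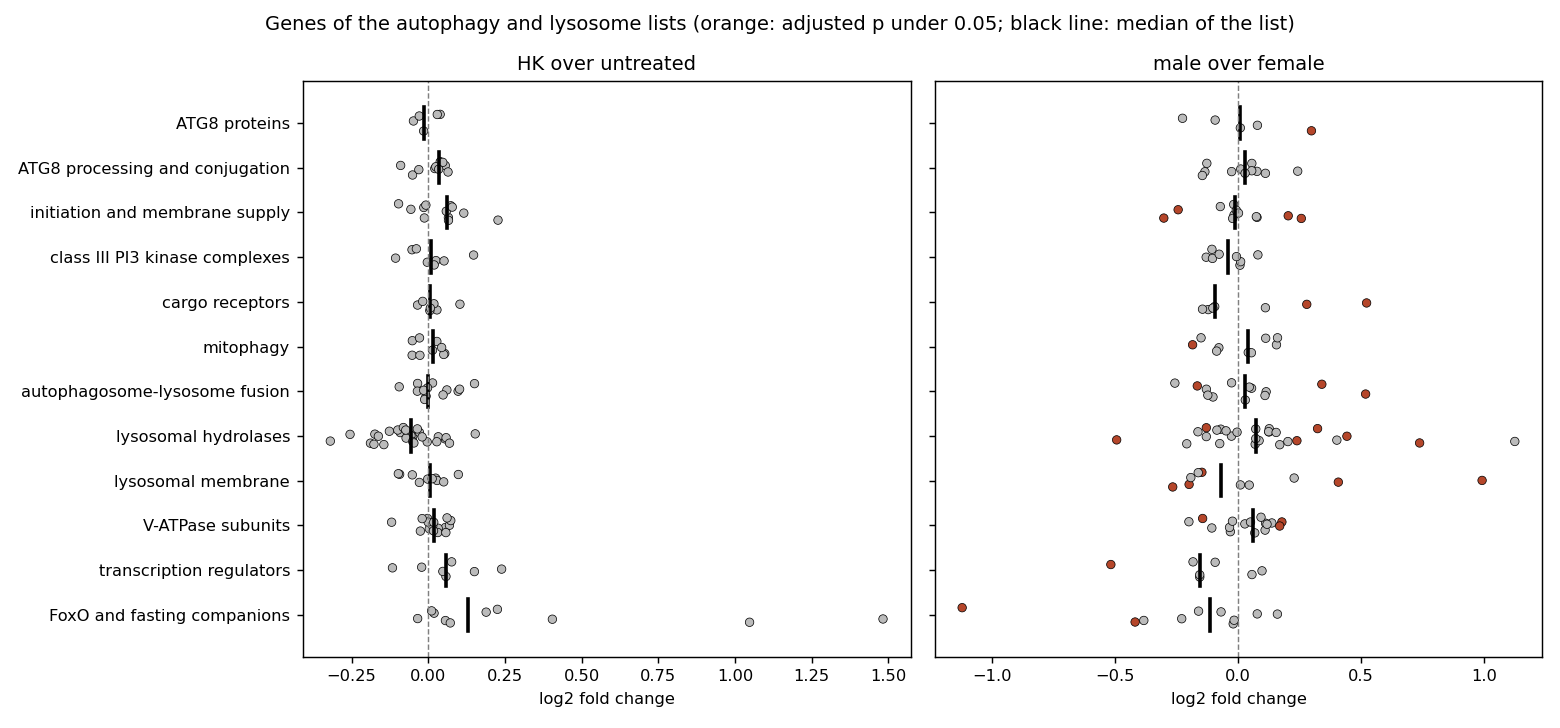
Log2 fold change (horizontal axes, different scales) of each gene of the 12 autophagy and lysosome lists, members included, between HK and untreated mice and between males and females. Black lines are list medians and orange points passed an adjusted p of 0.05 in edgeR. The treatment panel has no orange point, and its 2 points farthest to the right are Ddit4 (1.48) and Irs2 (1.05); the sex panel has orange points on both sides of 0.

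Between the sexes 25 of the 125 genes passed (20%), with 13 higher in males and 12 lower, and 16 and 13 without untreated female 3. These counts were near the background of 8.79% higher and 7.33% lower over all genes. Before adjustment, 22 of the 125 lay higher and 28 lower at a p under 0.05 in edgeR. That is 40% in both directions together, against 15.6% higher and 14.8% lower over all genes. Npc1, which moves cholesterol out of the lysosome, was 98.8% higher in males: 57.7 to 121 CPM, with a median of 100, against 39.8 to 62.5 in females, with a median of 49.2 (log2 0.99, standard error 0.12, adjusted p = 7.97e-06 in edgeR). Its ranges overlapped only at their ends. Sesn1, a stress protein that restrains mTORC1, was lower in males at 15.1 to 28.9 CPM against 36.6 to 86.5 in females, with no overlap (log2 -1.12, standard error 0.13, adjusted p = 5.84e-06 in edgeR).

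The receptor Optn was higher in males (log2 0.52, adjusted p = 0.00116), as was Vamp8, which acts in fusion (0.52, adjusted p = 1.01e-04), while Foxo3, a transcription factor that raises autophagy genes in wasting muscle, was lower (-0.52, adjusted p = 7.24e-04). Psap, the precursor of the saposins that help hydrolases digest lipids, was higher (0.24), as was the V-ATPase subunit gene Atp6v0b (0.18), and the lipid transfer gene Atg2b (-0.30) and the mitophagy receptor Fundc1 (-0.19) were lower, all 4 past the threshold. Atg4a (0.24, adjusted p = 0.0622), Pik3c3 (-0.11, adjusted p = 0.141) and Gabarapl2 (0.078, adjusted p = 0.408) had the lowest p in their lists and did not pass. Of the 27 hydrolases 4 passed higher and 2 lower in males, Ctsl being 1 of the latter, and their median was 0.071 (-0.048 in batch 1 alone).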

How the data were processed

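Gastrocnemius RNA of 20 mice was sequenced by the authors on a NextSeq instrument after depletion of ribosomal RNA. Per the study's methods and processing notes, the authors checked reads with FastQC, aligned them with STAR 2.6.1c to GRCm38.p6 and deposited whole-number counts per gene. For the counting tool, its use of strand and its treatment of reads with several matches, nothing is stated: not given in the sources used here. Young mice were not analysed here. Gene names and positions came from GENCODE M21, which matched 55141 of 55401 identifiers. The other 260 held 0.00127% of counts.

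Counts were scaled by TMM, filtered by filterByExpr and tested with edgeR 4.0.16 (quasi-likelihood, terms for batch, sex and treatment, Benjamini-Hochberg adjustment over all genes, threshold 0.05). Interactions used separate fits. DESeq2 1.42.0 and limma 3.58.1 were alternatives. Nothing in the labels pairs the mice. The correlation of equally numbered mice ran from -0.32 to 0.23, over 0.1 in 4 of 10 pairs, so the numbers were not taken as pairs. In batch 1, replicates 1 and 2 of a sex have the same value by construction (-0.32 in males, 0.17 in females). On simulated counts for HK against untreated (13502 genes, 99 changed per fold size), 71.7% of 1.5-fold and 89.9% of 2-fold changes were recovered, and 7.51% of calls were false. Genes were simulated as independent of each other, and smaller changes were not simulated. The largest treatment difference of the 10 genes, that of Ulk1, was 17.1%, so the recovery of such differences was not tested. Named genes were the 10 members, the non-member of each list with the lowest p in each contrast, and the gene most like each member. Ddit4, Trim63 and the correlated pair were named after their values were seen. The members and lists were chosen with earlier results of these data known. The totals of 13900180 to 30469644 counts set the precision.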

Additional observations from a re-analysis of the deposited data

Results flagged for a closer look

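Of 40 groups of 5 mice (10 genes in each treatment and sex), 4 held a mouse whose distance to its nearest neighbour was over 0.71 of the range of the group, where chance gives about 1 in 20 groups. Of these, 3 were the same mouse, untreated female 3: Sqstm1 stood at 680 CPM (456 to 491 in the other 4 untreated females), Bnip3 at 238 CPM (129 to 142) and Ctsl at 177 CPM (93.1 to 114). The other was Lamp2 in untreated male 3, at 76.3 CPM against 89.8 to 93.0 in the other untreated males. Untreated female 3 also held the highest summed slow fibre markers of the females and untreated male 3 the highest of all mice. The summed blood and macrophage markers of untreated female 3 each ranked 2 of the 10 females, and its skeletal muscle markers 9. The part of these markers in the 4 values was not tested.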

How the results depend on the processing

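The number of genes called between HK and untreated mice was 0, and it was 7 with DESeq2's Wald test, 502 without the filter on low counts, and 0 to 1 with each mouse left out. Without that filter the interactions called 314 (sex) and 225 (batch) genes. The cause was not tested. The contrast of sex called 1316 genes in batch 1 alone and 878 in batch 2 alone, and that of batch 1497 in females alone, with fewer mice in each fit.

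The values of HK against untreated that turned sign were near 0. The log2 fold change became -0.066 in batch 2 alone and -0.13 in females alone for Map1lc3a, 0.075 in males alone for Map1lc3b, and 0.099 in batch 1 alone for Gabarapl1. In batch 1 alone it was 0.060 for Bnip3, 0.048 for Ctsl and 0.013 for Lamp2, and in males alone 0.069 for Bnip3 and 0.051 for Lamp2. With each mouse left out it ran from -0.0046 to 0.12 for Map1lc3a, -0.039 to 0.039 for Map1lc3b, -0.045 to 0.036 for Sqstm1, -0.12 to 0.0092 for Gabarapl1, -0.098 to 0.053 for Bnip3, -0.076 to 0.027 for Ctsl and -0.076 to 0.012 for Lamp2.

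In the contrast of sex, batch 1 alone gave 0.067 for Map1lc3b and 0.11 for Ulk1, and leaving out mice gave -0.035 to 0.0037 for Becn1 and -0.056 to 0.024 for Ulk1. In that of batch, Map1lc3b was -0.023 and Ulk1 -0.095 in males alone, Bnip3 0.091 and Tfeb 0.031 in females alone, and Ulk1 -0.0036 with limma voom and -0.0014 with batch as the only covariate. Leaving out mice gave -0.10 to 0.032 for Bnip3 and -0.035 to 0.039 for Ulk1. The log2 ratio of Map1lc3b to Map1lc3a between HK and untreated was 0.053 in batch 2 alone. Between the sexes it was -0.24 in batch 1 alone, where the exact permutation test cannot give a p under 0.0556 and so cannot pass.

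With the replicate number as a block, 0 genes were called between HK and untreated mice and in either interaction, Ulk1 was at 0.24 (adjusted p = 0.787 in edgeR), and no call changed.

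The sex test of the ratio and the counts, ranges and correlations without untreated female 3 were chosen after seeing the data. The tests took each mouse as an independent unit and set differences against the spread between mice. The study gave HK in the drinking water and kept its mice in different animal facilities. The labels used here give neither cage nor facility of a mouse, so these could not be taken into account.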
